A study of Homo sapiens with 9 samples.

Results

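YY1 bound 1818 sites that lay between genes but no more than 50 kb from the nearest transcription start site (TSS), out of 23002 YY1 binding sites (peaks) in SK-N-MC cells. These sites were chosen by their annotation alone: every peak annotated as distal intergenic and lying within 50000 bp of a TSS was taken, whatever its signal, including peaks with no read in some libraries. They made up most of the 2975 intergenic peaks, and the other 1157 lay farther away. SK-N-MC is a human tumour line with neural features and the EWSR1-FLI1 fusion gene of Ewing sarcoma. YY1 was profiled by chromatin immunoprecipitation and sequencing after the cells had been transiently transfected with EGFP-tagged huntingtin (Htt) from residue 1 to residue 550. The stretch of glutamines in Htt was 23 long (HttQ23) or 89 long, the expanded form (HttQ89), and each group had 3 libraries labelled as biological replicates. Both groups carried the transgene, EGFP and the transfection, so untransfected cells are not part of any comparison here. A library measures a whole dish, so that fewer transfected cells and less binding per cell cannot be told apart. RNA was not measured in these libraries, so the labelled cell line could not be checked against marker genes.

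YY1 is a zinc finger protein that can activate or repress transcription and that helps to hold enhancers and promoters together. Most of its binding is at promoters that are rich in CpG dinucleotides, where its core motif often lies just downstream of the TSS. Binding sites between genes can be enhancers, promoters that an annotation lacks, or copies of mobile elements, among which the Alu family is the commonest in human DNA. Alu copies hold many CpG dinucleotides and are nearly alike, so that a read must differ from all other copies to be placed.

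Over the 6 libraries between 927910 and 2344649 reads fell in peaks, and HttQ89 replicates 1 and 2 had the fewest (927910 and 1012558). HttQ89 replicate 1 stood apart in another way, with no read at 22.5% of all peaks and 34.4% of these sites. Values are given as normalised read counts, the reads in a peak scaled to sequencing depth, where 1 read is worth between 0.8756 and 1.062. Differences between the groups are also given without that library where it moved them most.

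Letters that YY1 recognises stood at 6 of the 10 strongest sites, either as the core ATGGCG or as the longer AAGATGGC, in which the last base of the core is free. Either form stood in 41.4% of all the sites and in 35.0% of all peaks. The core was in 4 of the 10, against 32.7% of all peaks, and AAGATGGC in 4, against 5.79%. A GC box (GGGCGG) was in 10 of the 10, against 75.7% of all peaks. These counts over 10 sites carry no test. AAGATGGC was not confined to strong sites, since 60 of the 86 sites that held it were at ranks 1001 to 1818. Letters were searched on both strands of the 401 bp under each peak. GNG13 (chr16:807840-807927, minus strand), ZFP36L1 (chr14:68816412-68816499, plus strand) and LINC01977 (chr17:79813626-79813713, minus strand) held AAGATGGC, and GRIN1 (chr9:137129989-137130074, minus strand) and TET3 (chr2:74120325-74120410, plus strand) held ATGGCG, all in GRCh38 and named by the gene of the nearest TSS. The 5 windows are shown because they belong to the 5 strongest sites, read 5′ to 3′ on the strand given, with the YY1 letters in capitals.

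GNG13: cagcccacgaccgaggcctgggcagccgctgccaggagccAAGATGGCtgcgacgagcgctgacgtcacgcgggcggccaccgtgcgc

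ZFP36L1: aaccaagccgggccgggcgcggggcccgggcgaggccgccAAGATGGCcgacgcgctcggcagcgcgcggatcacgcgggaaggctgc

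LINC01977: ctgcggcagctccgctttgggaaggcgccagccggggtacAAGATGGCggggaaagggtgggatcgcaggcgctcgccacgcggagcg

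GRIN1: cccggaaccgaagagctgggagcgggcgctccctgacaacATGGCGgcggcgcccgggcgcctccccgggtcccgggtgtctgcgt

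TET3: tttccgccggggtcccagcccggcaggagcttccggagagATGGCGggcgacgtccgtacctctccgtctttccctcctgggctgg

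The letters lay 17.5 bp from the centre of the peak at GNG13, 16.5 bp at ZFP36L1, 6.50 bp at GRIN1 and 32.5 bp at TET3, but 144 bp from it at LINC01977. The GNG13 window also held TGACGTCA, the palindrome that CREB-like factors bind, to the right of the YY1 letters. All 5 windows were rich in C and G on both sides of the capitals. The other peak of the 10 with a core was KPNA2, and the 4 without either form were FOXK1, ACTG1, LOC124902693 and HAAO.

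Letters of other factors led the sites at FOXK1 and TMEM242, shown here because they were the strongest with an NRF1 and a CTCF consensus. NRF1 is an activator of nuclear genes for mitochondria, and CTCF is the main insulator protein, which marks the borders of chromatin loops. The FOXK1 window (chr7:4641800-4641889, plus strand) has the NRF1 palindrome in capitals, and the TMEM242 window (chr6:157274829-157274920, minus strand) has the CTCF match.

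FOXK1: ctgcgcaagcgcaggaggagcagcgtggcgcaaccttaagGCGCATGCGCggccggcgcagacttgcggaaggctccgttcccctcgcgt

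TMEM242: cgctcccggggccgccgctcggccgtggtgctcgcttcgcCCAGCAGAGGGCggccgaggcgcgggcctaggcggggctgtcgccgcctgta

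The core in another setting filled the weaker sites. Of the 683 intergenic sites within 50 kb that held ATGGCG, 414 (60.6%) held it within 1 shared context of 12 bases, which is part of the Alu consensus. The same context made up 77.2% of the core sites beyond 50 kb and 2.66% of those at promoters within 1 kb. Among promoters the commonest context was agATGGCGgcgg, with 109 of the core promoters against 1 intergenic site within 50 kb. The Alu context is therefore set apart in the shares that follow.

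Counted in full, 37.6% of the intergenic sites within 50 kb held the core (exact 95% binomial interval 35.3% to 39.8%), against 27.0% of promoters and 57.0% of intergenic peaks beyond 50 kb, and 32.7% of all peaks. With the Alu context set apart, the share was 16.2% (14.6% to 18.0%) against 26.3% at promoters and 15.1% beyond 50 kb. Only this commonest context was set apart. The next commonest contexts, in 35 and 17 sites, stayed in, so the share is not known to be free of Alu copies. AAGATGGC stood in 86 sites (4.73%, interval 3.80% to 5.81%), in 6.33% of promoters and in 5.79% of all peaks. It lay within 50 bp of the peak centre in 49 of those 86 sites (57.0%). The same held for 65.2% of the peaks beyond 50 kb that had AAGATGGC and for 39.0% of such promoters. The core lay that close in 30.5% of core sites. These intervals cover counting over sites only, and sites that share a mobile element are not independent.

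The Alu portion was measured by letters alone, since repeat annotation was not used here. A total of 185 stretches of 20 bases were each found in at least 10% of the sites, the commonest of them in 449 sites (24.7%). Any of the 185 stood in 691 sites (38.0%), in 63.4% of intergenic peaks beyond 50 kb and in 2.59% of promoters. CpG-rich sequence, defined as over 50% G and C with an observed to expected CpG ratio over 0.6, covered 1117 sites (61.4%), against 94.2% of promoters and 48.1% beyond 50 kb. The median G and C content was 62.1%, between 71.3% at promoters and 51.4% beyond 50 kb. The CpG-rich and Alu-bearing sites overlapped, with 342 sites of both kinds and 352 of neither. CpG-rich sites without a shared Alu stretch numbered 775 (42.6%). Sites in reach of a TSS were thus a mixture of CpG-rich sequence, as at promoters, and Alu-bearing sequence, with some sites of both kinds and some of neither.

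The mixture followed signal strength. All 20 of the strongest sites were CpG-rich and none of the 20 held a shared Alu stretch. The Alu share was 1.25% at ranks 21 to 100, 3.50% at ranks 101 to 500, 24.6% at ranks 501 to 1000 and 67.6% at ranks 1001 to 1818. CpG-rich sequence covered 41.6% of the last group, so some of its sites were of both kinds. The core outside the Alu context moved less, from 6 of the strongest 20 to 15.4% of the weakest group. AAGATGGC stood in 4 of the strongest 20 and in 1.25% of ranks 21 to 100. Its share was 1.75% at ranks 101 to 500, 2.80% at ranks 501 to 1000 and 7.33% in the weakest group. The splits by the shared stretches and by AAGATGGC were made after the data were seen and carry no test.

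**Figure D1:**
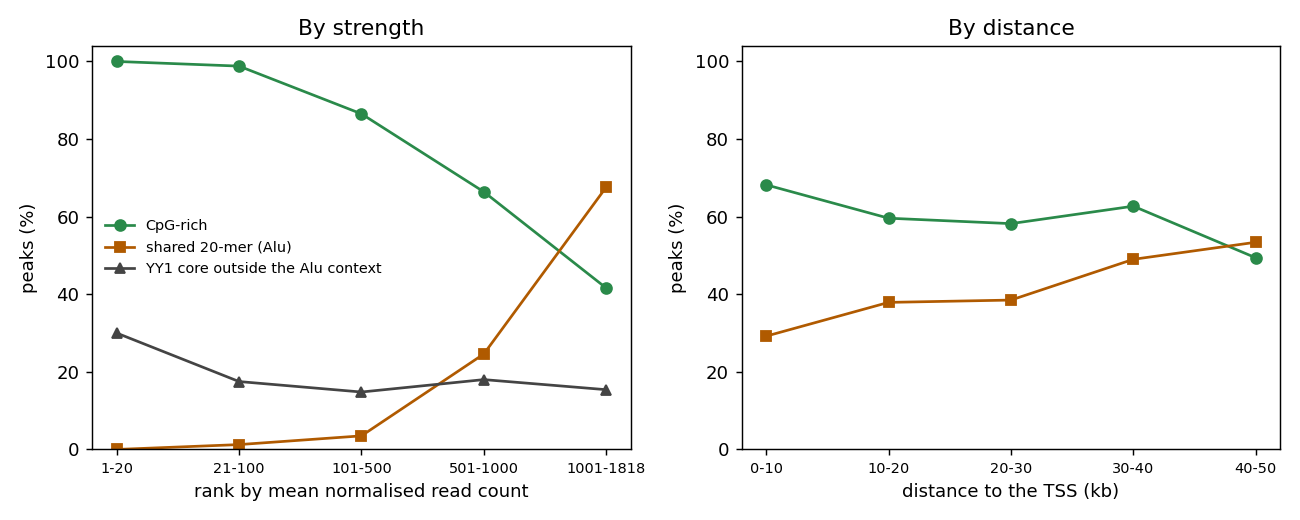
Share of the 1818 intergenic sites within 50 kb (percent) that were CpG-rich or held a shared 20-base Alu stretch. A further line shows the share with the YY1 core outside the commonest Alu context. Shares are by rank of mean normalised read count (left) and, for the first 2, by distance to the TSS in kb (right). Alu-bearing sites were 0% of the strongest 20 and 67.6% of ranks 1001 to 1818, and went from 29.2% within 10 kb to 53.4% at 40 to 50 kb.

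The insulator and activator letters were compared with the level of the sites that held them. The CTCF consensus stood in 40 sites (2.20%, interval 1.58% to 2.98%), against 0.602% of promoters, 0.519% of intergenic peaks beyond 50 kb and 0.869% of all peaks. Sites with it were higher than the other sites by 1.06 in mean log2(value + 1), averaged over libraries, with the difference between 0.712 and 1.45 in every library. The exact two-sided sign-flip p over the 6 libraries was 0.0312, the smallest that 6 libraries allow, and 0.0430 after Benjamini-Hochberg adjustment over 11 sequence features. These sign flips treat the 6 libraries as independent. Each library reads the same sites, so the p measures agreement between libraries and not the spread between sites. With the libraries of 1 replicate number averaged, as their pairing allows, the 3 pairs gave a p of 0.250. That is the smallest possible for 3 pairs, so neither this nor any other level difference could be called under the pairing. CTCF-bearing sites were thus few, and higher than the rest in all 6 libraries, where the rest includes the weak Alu-bearing sites. Their medians were 29.7, 25.5 and 35.5 with HttQ23 and 8.75, 27.7 and 38.5 with HttQ89. Sites without a shared Alu stretch had medians of 25.5, 27.6 and 24.5 with HttQ23 and 3.09, 17.8 and 28.1 with HttQ89. Against these, the CTCF median was lower in HttQ23 replicate 2.

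CpG-rich sites were higher than the rest by 1.21 on the same scale, with the smallest difference (0.444) in HttQ89 replicate 1. Sites with a GC box (GGGCGG, the SP1 site, in 63.6% of sites and 75.7% of all peaks) were higher by 0.96, and sites with the ETS letters CCGGAAG (5.67% of sites, 15.0% of promoters and 11.3% of all peaks) were higher by 0.84. ETS proteins include FLI1, the DNA-binding part of the fusion protein in these cells. The NRF1 palindrome (11 sites, 1.04% of all peaks) went with a difference of 1.39, the CRE palindrome (9 sites, 1.73% of all peaks) with 1.54, and the core preceded by AAG (9 sites, 3.07% of all peaks) with 0.92. Each of these 6 features reached the exact p of 0.0312 and the adjusted 0.0430, with the same sign in 6 of 6 libraries. These p-values do not cover the spread between sites, and NRF1, CRE and the core after AAG stood in few sites. The features overlap, since GC boxes and CpG-rich sequence often share the same bases. None of these differences, nor that of CTCF, was tested among sites without a shared Alu stretch.

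The core itself went the other way. Sites with ATGGCG were lower by 0.74 on average (exact p = 0.0625, adjusted 0.0764), lower in 5 of 6 libraries and higher by 0.06 in HttQ89 replicate 1. Among sites without a shared Alu stretch the value was −0.0021 (exact p = 0.875), an alternative chosen after seeing the data. AP-1 letters TGANTCA (6.60% of sites, 4.02% of all peaks; exact p = 0.438) and CCAAT (21.5% of sites, 24.2% of all peaks; exact p = 0.0938) differed by −0.08 and −0.11. A run of at least 4 GGAA units, the element to which EWSR1-FLI1 binds, stood in 1 site, near LINC00578, against 0.0217% of all peaks. Its normalised read counts were 0, 7.43 and 9.63 with HttQ23 and 0, 2.96 and 11.8 with HttQ89. Its difference from the mean of the others in log2(value + 1) ran from −3.65 to −0.42, with a mean of −1.45 (exact p = 0.0312, adjusted 0.0430), for this single site only. None of the 11 features had a level difference that changed between HttQ23 and HttQ89 (lowest exact p = 0.200, lowest adjusted 0.733, where 3 against 3 libraries cannot go below 0.1).

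As single sites, the strongest were few and were read strongly in all 6 libraries. GNG13, a G protein gamma subunit known from taste cells and neurons, had its peak upstream of the TSS (chr16:807666-808066), with normalised read counts of 1148, 540 and 1373 with HttQ23 and 808, 338 and 1095 with HttQ89. Replicate 2 was lowest in both groups and the groups overlapped. LINC01977, a long non-coding RNA (chr17:79813325-79813725), read 596, 434 and 557 with HttQ23 and 326, 267 and 502 with HttQ89. ZFP36L1, which hastens the decay of AU-rich messenger RNAs (chr14:68816272-68816672), read 536, 306 and 455 with HttQ23 and 229, 193 and 438 with HttQ89. At both, HttQ89 replicate 3 lay among the HttQ23 libraries.

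GRIN1, the subunit that every NMDA receptor needs (chr9:137129838-137130238), read 447, 263 and 481 with HttQ23 and 255, 169 and 502 with HttQ89. TET3, an enzyme that oxidises 5-methylcytosine (chr2:74120200-74120600), read 269, 194 and 433 with HttQ23 and 322, 176 and 455 with HttQ89, a log2 fold change of 0.06 ± 0.52 (SE). It was the one of the 10 with a positive value. ACTG1, cytoplasmic gamma-actin (chr17:81487808-81488208), read 436, 350 and 272 with HttQ23 and 101, 153 and 236 with HttQ89, and was the one of the 10 whose groups did not overlap. Its log2 fold change was −1.16 ± 0.50 (SE) with an adjusted p of 0.871 in limma.

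FOXK1, a forkhead repressor (chr7:4641662-4642062), read 509, 240 and 303 with HttQ23 and 48.4, 105 and 382 with HttQ89. The spread within HttQ89 was wider than the gap between the groups. LOC124902693 read from 195 to 334 with HttQ23 and from 63.8 to 301 with HttQ89, KPNA2 (an importin alpha that carries proteins into the nucleus) from 167 to 380 and from 101 to 287, and HAAO (an enzyme of the kynurenine pathway) from 210 to 308 and from 102 to 267. Replicate 3 was the highest HttQ89 library at all 10 sites.

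**Figure D2:**
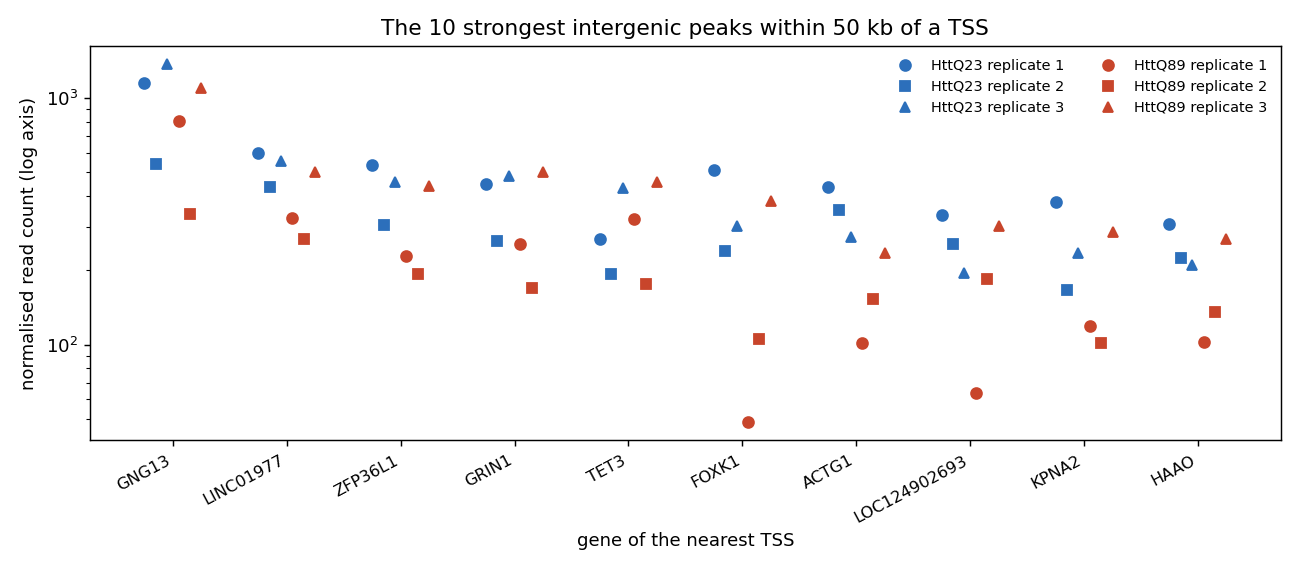
Normalised read count (log axis) of each of the 6 libraries at the 10 strongest intergenic sites within 50 kb of a TSS, named by the nearest gene; blue, HttQ23; red, HttQ89; symbols mark replicates. GNG13 lies highest in every library but is low in replicate 2 of both groups (540 and 338), and at ACTG1 all HttQ89 points (101 to 236) lie below all HttQ23 points (272 to 436).

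The remaining sites were weak. The median of the mean normalised read count was 12.9 (quartiles 7.24 and 26.2), against 64.6 at promoters and 7.84 at intergenic peaks beyond 50 kb. GNG13 ranked 66 among all peaks, 4 of the sites were among the 500 strongest peaks and 7 among the 1000 strongest. A mean of at least 100 was reached by 63 sites, and 715 (39.3%) stayed under 10. By replicate from 1 to 3 the median was 13.8, 14.9 and 14.9 with HttQ23 and 4.12, 10.9 and 17.2 with HttQ89. HttQ89 replicate 1 was low and replicate 3 was above every HttQ23 library.

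Relative to promoters, the median log2(value + 1) was lower in every library, by 1.87 to 2.59, a mean difference of −2.24 (exact two-sided sign-flip p = 0.0312 over 6 libraries, and 0.250 over the 3 pairs). Relative to intergenic peaks beyond 50 kb it was higher by 0.64, 0.74 and 0.70 with HttQ23 and by 0.00, 0.78 and 0.73 with HttQ89, a mean of 0.60 (exact p = 0.0625). The exception was HttQ89 replicate 1, in which both kinds of intergenic peak had the same median. Without that library the mean was 0.72.

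A value of 0 means that no read was counted. The share of sites at 0 was 15.6%, 13.6% and 7.81% with HttQ23 and 34.4%, 15.0% and 6.88% with HttQ89. Reads were counted in all 6 libraries at 761 sites (41.9%), against 63.9% of all peaks. Of the 610 sites with reads in 5 libraries, 353 (57.9%) had none in HttQ89 replicate 1 alone. The mean share at 0 was 12.4% ± 4.06 with HttQ23 and 18.8% ± 14.2 with HttQ89 (SD over 3 libraries in each; exact two-sided permutation p = 0.700), and without HttQ89 replicate 1 the difference of 6.42 percentage points became −1.41.

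**Figure D3:**
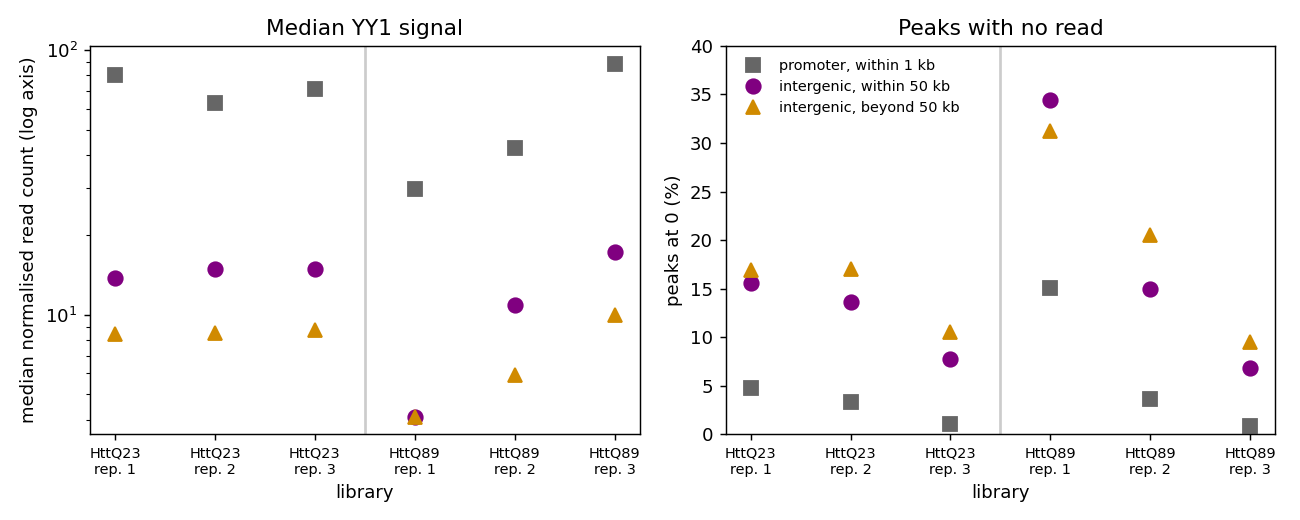
Median normalised read count (left, log axis) and share of peaks with no read (right, percent) in each library, for promoter peaks within 1 kb (grey squares), intergenic peaks within 50 kb (purple circles) and intergenic peaks beyond 50 kb (orange triangles). In HttQ89 replicate 1 both intergenic medians stood at 4.12 and 34.4% of the sites within 50 kb were at 0, against 6.88% to 15.6% in the other libraries.

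Sites farther from the TSS had lower signal, bin by bin. Distances ran from 3007 to 49976 bp with a median of 15654 bp. The median of the mean normalised read count was 16.5 for the 576 sites within 10 kb, 13.4 for 535 sites at 10 to 20 kb, 12.2 for 325 at 20 to 30 kb, 9.94 for 204 at 30 to 40 kb and 9.25 for 178 at 40 to 50 kb. The Alu share went over the same bins from 29.2% to 53.4%, and the CpG-rich share went from 68.2% to 49.4%. Some sites count in both shares. How far sequence accounts for the order of the bins was not tested. The limit itself falls in a weak stretch: just inside it TMEM18 had a mean of 12.7 at 49974 bp downstream and LOC105372750 a mean of 5.54 at 49976 bp upstream, and just outside it EHF had 5.35 at 50022 bp and LEPR 6.44 at 50042 bp.

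More sites lay upstream of the nearest TSS (1069, 58.8%) than downstream (749). The upstream sites were lower in 5 of 6 libraries by 0.23 to 0.36 in median log2(value + 1) and higher by 0.26 in HttQ89 replicate 1, with a mean of −0.21 (exact sign-flip p = 0.0938). Without HttQ89 replicate 1 the mean was −0.30. Shared Alu stretches stood in 42.9% of upstream and 31.0% of downstream sites.

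The nearest transcript was protein-coding for 65.2% of the sites, a long non-coding RNA for 27.7% and a microRNA for 2.37%. Although intergenic in GENCODE, 325 sites (17.9%) overlapped a gene in RefSeq, and 32 (1.76%) overlapped the window from 250 bases before to 50 after a RefSeq gene start. Those 32 had a median mean count of 23.6 against 12.8 for the rest. Among named sites, those of TET3, NOX4 and LOC124902693 lay within the RefSeq gene of the same name, TET3 also within FNBP1P1. The B3GNT7 and NKX2-2 sites overlapped the start windows of LOC124907997 and LOC112268271. Chromosome 5 held the most sites, 161 (8.86%), with 16.9% of intergenic peaks beyond 50 kb but 4.86% of promoters. The median mean count of 12.1 on chromosome 5 was close to that of all the sites.

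The comparison of HttQ89 with HttQ23 asked whether expanded Htt changed YY1 binding at these sites. No site passed. limma, fitted on log2(value + 1) over all 23002 peaks, called 0 of 1818 sites at an adjusted p of 0.05 (lowest 0.871), as it called 0% of all peaks. At an unadjusted p of 0.05, 31 sites (1.71%) were lower with HttQ89 and 2 (0.11%) were higher, against 1.50% and 0.0956% of all peaks. With the replicate number as a block the counts were 74 and 11, against 764 and 123 of all 23002 peaks, and still 0 after adjustment. edgeR on the recovered reads gave 7 lower and 5 higher, against 45 and 21 of all peaks. DESeq2 gave 10 and 13, against 75 and 143 of all peaks, with 0 adjusted calls in each. Without HttQ89 replicate 1 the unadjusted counts were 15 and 3 of 1818 sites, against 188 and 35 of 23002 peaks. Without HttQ89 replicate 3 they were 243 and 4, against 5197 and 17 of all peaks. A smaller part of the sites than of all peaks was then lower.

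The log2 fold change was negative at 1306 sites (71.8%), against 78.0% of all peaks, with a median of −0.55, where all peaks together had −0.54. It was negative at 1004 sites without HttQ89 replicate 1, at 928 in DESeq2 and at 846 with quantile normalisation. Its size rested on the HttQ89 libraries: the median was −0.10 without replicate 1 of that group and −0.98 without its replicate 3. Bringing the libraries to a common level moved the median to −0.13 with median centring, −0.18 with TMM scaling, −0.02 in DESeq2 and 0.06 with quantile normalisation, where it changed sign. By library, the median log2(value + 1) was 3.95 ± 0.0590 with HttQ23 and 3.37 ± 0.931 with HttQ89 (SD over 3 libraries in each; exact two-sided permutation p = 0.400). The sum over the sites was 56146, 49119 and 51664 with HttQ23 and 19661, 33087 and 60548 with HttQ89 (exact p = 0.400), a mean difference of −14544 that became −5492 without HttQ89 replicate 1 and −25935 without HttQ89 replicate 3. As a share of the signal in all peaks it was 2.72%, 3.27% and 2.82% with HttQ23 and 2.06%, 3.31% and 2.85% with HttQ89 (exact p = 0.900), and without HttQ89 replicate 1 the difference turned from −0.20 to 0.14 percentage points.

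The shift of a peak in a library was its log2(value + 1) minus the mean of that peak over HttQ23. The median shift of the sites minus that of promoters differed between HttQ89 and HttQ23 by 0.01 (exact two-sided permutation p = 1.00). Library values ran from −0.13 to 0.16 with HttQ23 and from −0.21 to 0.29 with HttQ89. With intergenic peaks beyond 50 kb in place of promoters the difference in shift was −0.19 (exact p = 0.400), and −0.02 without HttQ89 replicate 1. Neither exceeded the spread between replicates.

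At 94 sites (5.17%) all HttQ89 libraries lay below all HttQ23 libraries, against 4.35% of all peaks, and at 18 sites (0.990%) all lay above, against 0.769%. HttQ89 replicate 1 was at 0 in 33 of the 94 (35.1%), close to its 34.4% over all the sites. With a library left out the groups are smaller and separate more often: without HttQ89 replicate 1, 119 sites were lower (6.55%, against 5.19% of all peaks) and 83 higher (4.57% against 3.13%), and without HttQ89 replicate 3, 502 were lower (27.6% against 39.8%). The lower sites had a median mean count of 15.5 and the higher ones 7.90, with none of the higher ones above 16.8. Shared Alu stretches stood in 24 of the 94 lower sites (25.5%) and in 13 of the 18 higher ones (72.2%). These shares describe chosen sites and carry no test.

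HSD17B3, a testosterone-forming dehydrogenase, had the lower site with the lowest p (chr9:96219072-96219472), which read 65.8, 64.8 and 74.4 with HttQ23 and 0, 3.95 and 55.2 with HttQ89. HttQ89 replicates 1 and 2 were nearly empty and replicate 3 was close to HttQ23. The log2 fold change was −3.41 ± 1.24 (SE; limma adjusted p = 0.871), and −2.05 without HttQ89 replicate 1. Another, stronger HSD17B3 site (chr9:96218096-96218496) read 137, 126 and 164 with HttQ23 and 27.8, 87.0 and 165 with HttQ89. Its log2 fold change was −0.93 ± 0.64 (SE) and its groups overlapped. B3GNT7, a glycosyltransferase that extends sugar chains (chr2:231412084-231412484), read 63.6, 36.1 and 49.9 with HttQ23 and 0, 9.88 and 15.4 with HttQ89, so that all HttQ89 libraries were well below. CCNE1, the cyclin of entry into S phase (chr19:29844331-29844731), read 121, 75.4 and 119 with HttQ23 and 31.9, 22.7 and 57.0 with HttQ89, with a log2 fold change of −1.54 ± 0.66 (SE; limma adjusted p = 0.871).

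LINC02230, a long non-coding RNA (chr5:73311599-73311999), read 14.8, 25.5 and 35.0 with HttQ23 and 7.21, 0 and 0.910 with HttQ89. KLRF2, a lectin-like receptor of natural killer cells (chr12:9876131-9876531), read 38.2, 26.6 and 13.1 with HttQ23 and 1.03, 0 and 9.05 with HttQ89. Both were weak sites without CpG-rich sequence. LINC02298 had the lowest p of the long non-coding RNA genes, yet its groups overlapped: it read 123, 81.8 and 83.2 with HttQ23 and 0, 4.94 and 82.4 with HttQ89.

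The higher sites were close to the limit of detection. LINC01517 (chr10:28722159-28722559) had no read with HttQ23 and read 7.21, 9.88 and 29.0 with HttQ89, 49 reads in all. TNIP2P1, a processed pseudogene (chrX:40794401-40794801), was also at 0 with HttQ23 and read 8.24, 3.95 and 5.43 with HttQ89. Both were among 10 sites (0.550%) at 0 in all of HttQ23, and 4 sites (0.220%) were at 0 in all of HttQ89. A site with no read in a whole group can be a peak only through reads of the other group. Its difference therefore carries no support. The shares of such sites over all peaks were not counted.

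NOX4, an NADPH oxidase with an Alu-bearing site (chr11:89536052-89536452), read 0, 4.25 and 0.880 with HttQ23 and 12.3, 17.8 and 7.24 with HttQ89. LINC01566 (chr16:35349800-35350200), also Alu-bearing, read 1.06, 0 and 0.880 with HttQ23 and 8.24, 13.8 and 7.24 with HttQ89. ZNF311, a zinc finger gene (chr6:29016611-29017011), read 0, 5.31 and 2.63 with HttQ23 and 24.7, 9.88 and 17.2 with HttQ89. The limma adjusted p was 0.871 for each of the 5 higher sites. Among the sites that were empty with HttQ89, MIR1299 read 3.18, 12.7 and 5.25 with HttQ23. It can be a peak only through those HttQ23 reads.

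**Figure D4:**
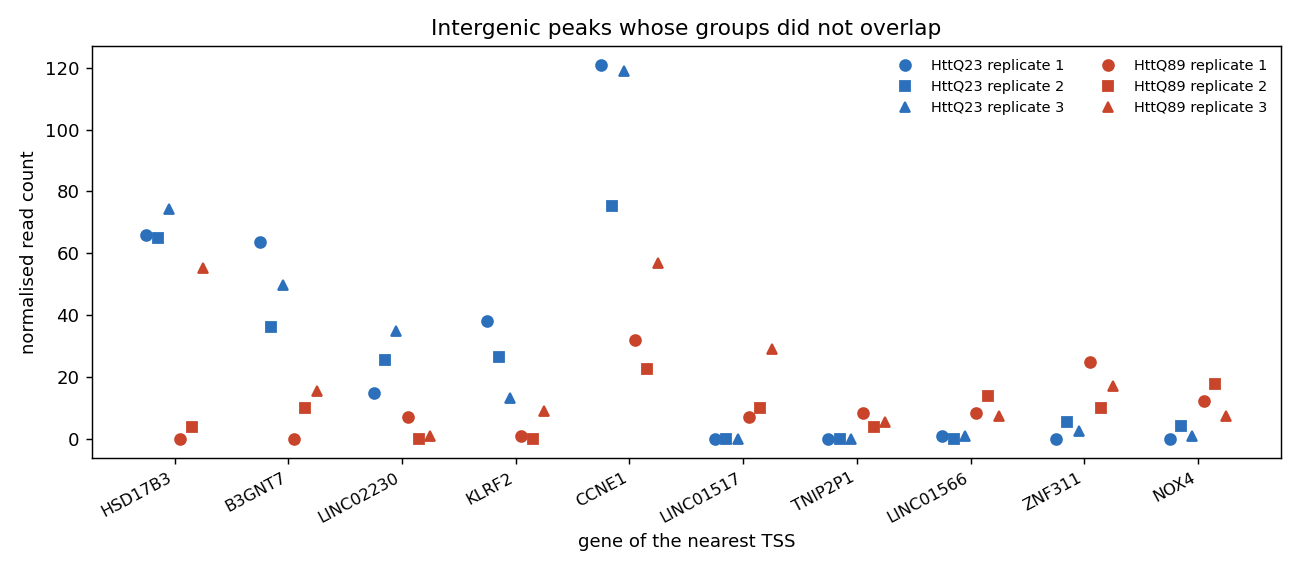
Normalised read count of each library at the 5 lower and 5 higher sites with the lowest limma p among sites whose groups did not overlap; blue, HttQ23; red, HttQ89; symbols mark replicates. The lower sites were read at up to 121 (CCNE1) with HttQ23, while no library exceeded 29.0 at the higher sites, and at HSD17B3 the HttQ89 replicate 3 point (55.2) lies next to the HttQ23 points.

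The kinds of site differed in how they read in HttQ89 replicate 1, a description made after the data were seen. The 775 CpG-rich sites without an Alu stretch had medians of 35.0, 35.0 and 31.5 with HttQ23 and 5.15, 22.7 and 38.0 with HttQ89. The 691 Alu-bearing sites had medians of 7.42, 7.43 and 7.00 with HttQ23 and 5.15, 5.93 and 9.05 with HttQ89. The medians of the kinds were thus equal in HttQ89 replicate 1, while the CpG-rich median was several-fold higher in every other library. The means were not equal there, at 16.6 per CpG-rich site and 6.74 per Alu-bearing site, so the gap was smaller than in the other libraries but not gone. It had no read at 40.3% of the CpG-rich sites without Alu and at 22.9% of the Alu-bearing ones, and Alu-bearing sites took 23.7% of the signal of all the sites in that library, against 11.4% to 16.4% in the others. In HttQ89 replicate 3 both kinds were above every HttQ23 library.

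The 86 sites with AAGATGGC had medians of 5.83, 6.37 and 14.4 with HttQ23 and 3.09, 3.95 and 11.3 with HttQ89. Replicate 3 of both groups was high, and the share of these sites without a read was 24.4%, 24.4% and 3.49% by HttQ23 replicate and 27.9%, 20.9% and 2.33% by HttQ89 replicate. The sites without it had no such step within HttQ23, with medians of 14.8, 15.9 and 14.9. The 40 CTCF sites had medians of 29.7, 25.5 and 35.5 with HttQ23 and 8.75, 27.7 and 38.5 with HttQ89, and their strongest, TMEM242, a transmembrane protein gene (chr6:157274679-157275079), read 165, 165 and 109 with HttQ23 and 3.09, 75.1 and 137 with HttQ89.

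**Figure D5:**
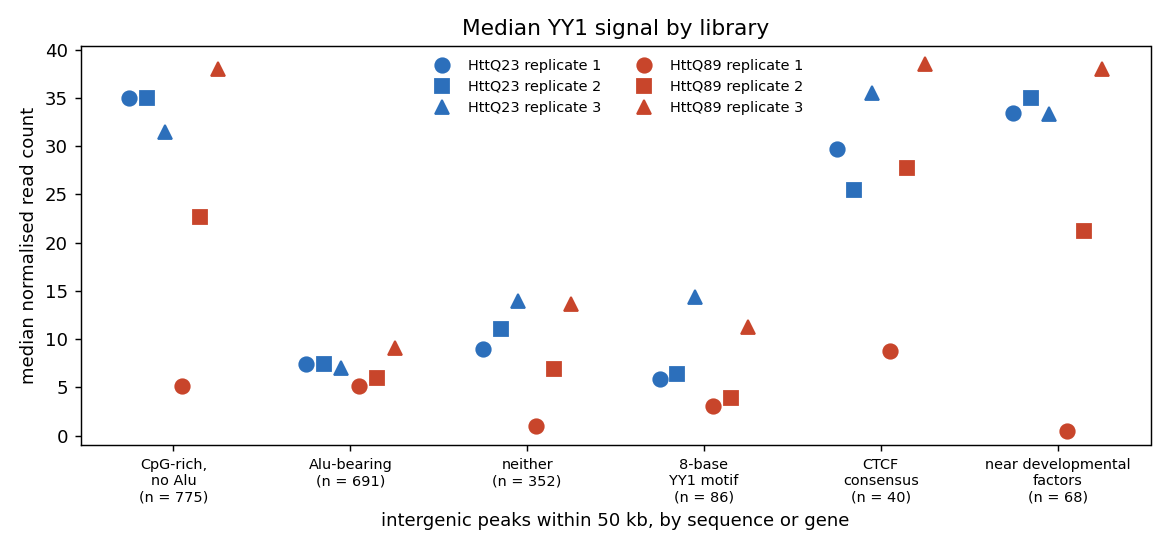
Median normalised read count of each library over groups of intergenic sites within 50 kb, set by sequence or by the nearest gene, with the number of sites in brackets; blue, HttQ23; red, HttQ89; symbols mark replicates. HttQ89 replicate 1 stood at 5.15 at CpG-rich sites and at 0.515 near developmental factors and also at 5.15 at Alu-bearing sites, and replicate 3 of both groups (14.4 and 11.3) was high at sites with the 8-base YY1 motif.

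Among gene lists, sites near developmental transcription factors stood at the CpG-rich end. Of 68 sites near 45 such genes, 86.8% were CpG-rich and 10.3% held an Alu stretch. Their medians were 33.4, 35.0 and 33.3 with HttQ23 and 0.515, 21.2 and 38.0 with HttQ89, and 34 of them had no read in HttQ89 replicate 1, while 11 had none in some other library. limma called 0, and at the unadjusted 0.05, 2 were lower and 0 higher, where all peaks had 1.50% and 0.0956%. They had a median log2 fold change of −1.03 where all the sites had −0.55. Without HttQ89 replicate 1 these medians were −0.27 and −0.10, and that of all peaks was −0.20. MSX2, a homeobox gene of skull and limb buds, read 136, 178 and 186 with HttQ23 and 0, 135 and 181 with HttQ89. Outside HttQ89 replicate 1 its 5 values were close together.

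LHX3, a LIM homeobox gene of the pituitary, read 158, 177 and 172 with HttQ23 and 95.8, 80.0 and 188 with HttQ89. FOXD1, a forkhead gene of kidney stroma, read 268, 204 and 186 with HttQ23 and 62.8, 91.9 and 192 with HttQ89. HttQ89 replicate 3 was above the HttQ23 values at LHX3 and among them at FOXD1. PAX2, a regulator of kidney and eye development, had 5 sites, the most of any gene along with PRSS16, all upstream, with means from 16.7 to 37.3, and HttQ89 replicate 1 was at 0 in 4 of the 5. The strongest of them (chr10:100710142-100710542) read 41.4, 55.2 and 58.7 with HttQ23 and 0, 18.8 and 49.8 with HttQ89.

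Targets of EWSR1-FLI1 and sympathoadrenal genes were represented by 2 sites each. NKX2-2, a homeobox gene that the fusion induces in Ewing sarcoma, read 72.1, 70.1 and 56.9 with HttQ23 and 0, 25.7 and 85.1 with HttQ89. CCND1, cyclin D1, read 102, 77.5 and 56.0 with HttQ23 and 40.1, 52.4 and 87.8 with HttQ89. ISL1, a LIM homeobox gene of motor and sympathetic neurons, read 47.7, 46.7 and 7.00 with HttQ23 and 19.6, 32.6 and 24.4 with HttQ89, and GATA3 read from 10.5 to 24.4 with HttQ23 and from 1.03 to 28.1 with HttQ89. The groups overlapped at all 4 and limma called 0 of them, with 0 at an unadjusted p of 0.05.

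Non-coding genes made up the largest lists. The lists of long non-coding RNA genes and of uncharacterised LOC loci had 238 sites each, with median log2 fold changes of −0.61 and −0.51 and 0 calls in limma. At an unadjusted p of 0.05, where all peaks had 1.50% lower and 0.0956% higher, the first had 5 lower and 1 higher, and the second 0 in either direction. The 44 sites near microRNA genes had 2 lower and 0 higher, and the strongest, MIR3937, read from 110 to 243 with HttQ23 and from 97.8 to 242 with HttQ89. The 37 sites near zinc finger genes had a median of −0.36 with 0 lower and 0 higher. Their strongest, ZNF778, read 151, 97.7 and 80.5 with HttQ23 and 35.0, 80.0 and 177 with HttQ89, so HttQ89 held both the lowest and the highest value.

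The smaller lists were alike in having 0 calls. At 5 sites near small RNA genes all the fold changes were negative, and RNU6-1, which encodes the U6 spliceosomal RNA, read 105, 89.2 and 125 with HttQ23 and 52.5, 61.3 and 152 with HttQ89. The 7 sites near protocadherin and cadherin genes were led by PCDH15, a hair cell tip-link protein, with 54.2 to 88.4 with HttQ23 and 37.5 to 122 with HttQ89. Of 21 sites near pseudogenes, 10 had positive and 11 negative fold changes, with TNIP2P1 the 1 at an unadjusted p of 0.05. The histone list had 1 site, near H3P4, with no read in HttQ23 replicate 1 and HttQ89 replicates 1 and 3.

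PRSS16, a serine protease of the thymus, lies in a cluster of transfer RNA genes on chromosome 6, and all its 5 sites were weak, the weakest with a mean of 4.94. Its strongest (chr6:27231373-27231773) read 6.36, 6.37 and 18.4 with HttQ23 and 20.6, 19.8 and 24.4 with HttQ89, so that all HttQ89 libraries were above. Other PRSS16 sites went the opposite way, with all HttQ89 libraries below. The site at chr6:27235660-27236060 read 18.0, 15.9 and 14.9 with HttQ23 and 5.15, 8.89 and 11.8 with HttQ89. The site at chr6:27232786-27233186 read 17.0, 7.43 and 5.25 with HttQ23 and 5.15, 0 and 1.81 with HttQ89. At the remaining PRSS16 sites the groups overlapped. Transfer RNA genes lay under 10 of the intergenic sites within 50 kb (0.550%), against 0.0342% of promoters and 0.130% of all peaks, and 1 of the 10 was the KPNA2 site. Their medians were 92.3, 68.5 and 74.4 with HttQ23 and 43.8, 65.2 and 105 with HttQ89. ALOX5AP, which presents arachidonic acid to 5-lipoxygenase, had its site over an asparagine transfer RNA gene (chr13:30674036-30674436) and read 195, 120 and 144 with HttQ23 and 55.6, 74.1 and 160 with HttQ89. The overlap with transfer RNA genes was looked at after the data were seen.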

How the data were processed

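YY1 was immunoprecipitated from SK-N-MC cells in 3 HttQ23 and 3 HttQ89 libraries. Input libraries are not analysed here. As the labels and the study's methods have it, the authors took paired reads of 150 nt, which were checked with FastQC 0.11.8, trimmed with Cutadapt 3.7, aligned to GRCh38.p14 with Bowtie2 2.4.1 and kept where uniquely aligned. They dropped blacklisted regions (bedtools 2.29.2), called peaks (MACS3 3.0.1) and annotated them (ChIPseeker 1.38.0). Unique alignment thins reads in repeats such as Alu copies. The deposited values are a signal that the authors made with DiffBind, the reads in each peak scaled to sequencing depth, and such scaling keeps differences in immunoprecipitation yield between libraries. All values (100.0%) were whole multiples of 1 step per library within 0.1 reads, so reads were recovered by division. No pair of libraries was identical.

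All 1818 sites were found in GENCODE v44 with distances that matched within 1 bp. Sequence under the peaks was read from GRCh38, and RefSeq genes and promoter windows were those of GRCh38.p14. limma 3.58.1 (R 4.3.3, trend, two-sided) was fitted to log2(value + 1) of all 23002 peaks, unfiltered because sites at 0 belong to the set, with Benjamini-Hochberg adjustment. The pseudocount of 1 understates changes of weak peaks. edgeR 4.0.16 and DESeq2 1.42.0 on recovered reads were alternatives. Exact two-sided permutation tests compared library values, 3 against 3 (smallest p 0.1) or by sign flips over 6 libraries. P-values measure the spread between labelled biological replicates, not the spread between sites. On simulated counts for 23002 peaks at the dispersion of these libraries (0.659), limma found 0% of changes from 2-fold to 8-fold and 2% of 16-fold ones. With the dispersion set to 0.0659, 14% of the 2-fold and 88% of the 4-fold changes were found, beside 8 false calls. The dispersion was estimated with sequencing depth as the only scale, so it includes level differences that all peaks of a library share. The simulation drew each peak independently and does not copy that sharing. The changed peaks were drawn from those with a mean over 20. Only 615 of the 1818 sites had a mean of at least 20, so the simulation does not cover the weaker ones.

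Replicate numbers come from the labels. Deviations of same-numbered libraries from their group means correlated at 0.233, 0.437 and 0.203 over all peaks, against at most 0.0325 for other pairs, so the numbers were taken to pair the libraries. The sites and gene lists were chosen with earlier results of these data known. Named sites are the 10 strongest, 5 each way with the smallest limma p where groups did not overlap, those beside the 50 kb limit, the strongest with each sequence feature, genes with the most sites, the strongest and lowest-p site of each list and sites at 0 in a whole group. The text names part of these. MSX2, LHX3, FOXD1, LINC02298, ALOX5AP and the stronger HSD17B3 site were picked after their values were seen. Some sequences are not reported here.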

Additional observations from a re-analysis of the deposited data

How the results depend on the processing

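No alternative gave a site an adjusted call, and leaving out each library in turn kept that count at 0. At an unadjusted p of 0.05, the lower sites numbered 53 with a pseudocount of 5, 17 with median centring, 16 with quantile normalisation and 19 with TMM scaling. The higher ones numbered 2, 8, 14 and 7. Over all 23002 peaks the same settings gave 774, 144, 190 and 159 lower and 33, 102, 199 and 80 higher. Leaving out 1 library gave 4 (HttQ23 replicate 3) to 243 (HttQ89 replicate 3) lower and 1 to 5 higher. Over all peaks, leaving out those libraries gave 59 and 5197 lower. The replicate block gave 74 lower and 11 higher and left the group differences without a call. In the level tests, where it was added after the data were seen, it left each mean as it was (−2.24 against promoters, 1.06 for CTCF, 1.21 for CpG-rich sequence, 0.96 for GC boxes, 0.84 for ETS, 1.39 for NRF1, 1.54 for CRE, 0.92 for the core after AAG and −1.45 for the GGAA repeat), and all 9 lost their call, since 3 pairs cannot give a p below 0.250. The median shift between groups went from −0.58 to −1.04 without Alu-bearing sites. The difference in shift between the sites and promoters had no stable sign. It was −0.31 with a mean of at least 20, −0.0094 with a pseudocount of 0.5 and −0.015 with a limit of 25 kb. It was −0.27 without Alu-bearing sites and ranged from −0.11 to 0.14 on leaving out 1 library. The share of signal ranged from −0.48 to 0.14 and the share at 0 from −1.41 to 12.4 percentage points on leaving out 1 library.

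Level differences kept their direction. With 5 libraries a sign-flip p cannot go below 0.0625, so each lost its call by construction: against promoters the range was −2.31 to −2.16, for CTCF 0.98 to 1.13, for CpG-rich sequence 1.14 to 1.36, for GC boxes 0.90 to 1.09, for ETS 0.80 to 0.92, for NRF1 1.25 to 1.57, for CRE 1.49 to 1.65, for the core after AAG 0.84 to 0.96 and for the GGAA repeat −1.66 to −1.01. The difference from peaks beyond 50 kb reached an exact p of 0.0312 with peaks above 0 in all 6 libraries (0.87) and with a limit of 25 kb (0.80), and so did the core with that filter (−0.93) and with a pseudocount of 5 (−0.57). AP-1 changed sign with that filter (0.14).

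The HttQ89 minus HttQ23 change of feature differences, called nowhere, changed sign with that filter for the core after AAG (−0.013), AP-1 (−0.019), NRF1 (−0.099) and CCAAT (−0.00072), and with a pseudocount of 5 for NRF1 (−0.097). Leaving out 1 library gave −0.051 to 0.50 for the core, −0.080 to 0.25 for the core after AAG, −0.77 to 0.83 for the GGAA repeat, −0.30 to 0.072 for CTCF, −0.45 to 0.38 for NRF1, −0.26 to 0.14 for CRE and −0.028 to 0.14 for CCAAT. The causes were not tested. The GGAA repeat site is at 0 in some libraries, so no value was possible with that filter, and the share of repeat-masked bases was not run because the reference used here does not mark repeats. Depth limits weak sites most: 39.3% had a mean under 10, where a few reads set the value.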
